A study of Homo sapiens with 18 samples.

Results

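The 5 genes described here are the stress sensors GADD45A, GADD45B and GADD45G, the GADD45-binding protein gene GADD45GIP1, and MAP3K4, the kinase that GADD45 proteins switch on. They were picked by name, matched by symbol to their Ensembl IDs, and all 5 were found among the 62649 gene IDs of the count tables. Messenger RNA was sequenced from a pair of human lung epithelial lines, and the study's title places its question in the gas phase of wood smoke. Cells of each line stayed on porous inserts with their upper side open to the gas for 4 h, under wood smoke (complete or filtered) or under clean air. Each of the 6 combinations of line and exposure has 3 libraries. BEAS-2B is an immortalised bronchial epithelial line and A549 an alveolar line from a lung carcinoma, both labelled wild type, so each stands for 1 line and not for its tissue. No label tells whether the 3 libraries of a combination are independent cultures, so the p-values describe only how these libraries scatter, and that scatter may be technical. The time between exposure and lysis is not stated.

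GADD45 proteins are small nuclear proteins with no enzyme activity of their own that are made when cells meet DNA damage or other stress. They bind MAP3K4 and open it from a self-inhibited state, and MAP3K4 then phosphorylates MAP2K3, MAP2K4 and MAP2K6, which activate the p38 and JNK kinases. GADD45 proteins are also known to bind PCNA, CDKN1A and the CDK1 kinase, and to bring excision-repair enzymes to methylated DNA. GADD45A is best known as a gene induced by DNA damage, GADD45B as a gene induced by TGF-beta, NF-kB and growth signals, and GADD45G as one induced by cytokines. GADD45GIP1, also called CRIF1, binds all GADD45 proteins in the nucleus and is a protein of the large subunit of the mitochondrial ribosome.

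The promoters of GADD45B and GADD45G are shown because these 2 genes rose most in A549 cells. They are the 250 bases before the start site, from RefSeq on GRCh38.p14, printed 5′ to 3′. Capitals mark the E-box letters CACGTG on either strand. They also mark the CCAAT box, which is named for its letters, on either strand. The remaining capitals mark the letters TATANA on either strand, which resemble the box that places many start sites.
GADD45B promoter, chr19:2475877-2476126, + strand: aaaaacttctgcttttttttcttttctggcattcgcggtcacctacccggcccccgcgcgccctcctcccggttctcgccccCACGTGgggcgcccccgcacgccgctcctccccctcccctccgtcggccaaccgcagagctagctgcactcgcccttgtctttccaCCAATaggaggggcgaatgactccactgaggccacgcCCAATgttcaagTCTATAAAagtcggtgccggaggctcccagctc
GADD45G promoter, chr9:89604762-89605011, + strand: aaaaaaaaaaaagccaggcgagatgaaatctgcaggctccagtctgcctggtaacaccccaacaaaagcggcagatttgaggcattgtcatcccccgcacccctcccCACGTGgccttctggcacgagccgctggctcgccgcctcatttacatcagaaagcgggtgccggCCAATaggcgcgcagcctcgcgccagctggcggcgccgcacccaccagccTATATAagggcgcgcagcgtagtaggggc
Both windows held these 3 elements in the same order. CACGTG began 168 bases before the start in GADD45B and 143 in GADD45G. CCAAT began 82 and 45 bases before it in GADD45B and 79 in GADD45G, and TATANA began 33 and, overlapping that match, 31 bases before it in GADD45B and 29 in GADD45G. Among 35116 human promoter windows of the same length, 6.34% held CACGTG, 32.0% CCAAT and 17.7% TATANA. Some letters searched are not marked by capitals. GADD45B held the AhR core GCGTG 151 and 50 bases before the start (32.2% of all windows) and the EGR letters GCGNGGGCG at 159 (8.41%). GADD45G held the antioxidant letters TGACNNNGC at 169 (10.9%). The AP-1 letters TGANTCA were in neither window and in 6.57% of all windows. The heat shock pair, searched as GAANNTTC on both strands, was in neither window and in 5.78% of all windows. The promoter table gave a window for 4 of the 5 genes, and the windows of GADD45GIP1 and MAP3K4 held neither CACGTG nor CCAAT. That of GADD45GIP1 held TATANA 138 bases before the start.

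The libraries held 28.53 to 55.03 M gene counts in BEAS-2B cells and 14.44 to 21.43 M in A549 cells (M, 1000000). KRT8 and KRT18, keratins of simple epithelia, were abundant in both lines, at no less than 1197 CPM (a library's read count of a gene over its total gene count, times 1000000). Other epithelial markers were low, EPCAM at 5.41 to 17.46 CPM and CDH1 at 4.27 to 39.94 CPM in BEAS-2B and 30.35 to 93.29 CPM in A549 libraries. Mesenchymal markers were present in BEAS-2B and A549 libraries, VIM at 2176 to 4418 and 924 to 1957 CPM. FN1 lay at 1561 to 4519 and 484 to 1320 CPM, and COL1A1 at 128.9 to 1086 and 8.32 to 50.5 CPM. The basal keratin KRT5 lay between 69.6 and 140.1 CPM in BEAS-2B libraries and at no more than 0.241 CPM in A549 libraries, whereas TP63, another basal marker, was not higher in BEAS-2B cells, at 1.71 to 14.91 CPM in BEAS-2B libraries and 4.84 to 22.55 CPM in A549 libraries. ALDH1A1 lay at no more than 0.0657 CPM in BEAS-2B libraries and between 7415 and 9477 CPM in A549 libraries. Of 4 alveolar type 2 markers, SFTPC, SFTPB and NKX2-1 stayed at or below 0.29 CPM in both lines, and ABCA3, a lipid transporter, lay between 4.26 and 9.01 CPM in BEAS-2B libraries and between 40.84 and 55.27 CPM in A549 libraries. The leukocyte marker PTPRC stayed at or below 0.105 CPM. A pair of BEAS-2B libraries stood apart. In clean air 1, several member values lay nearer to the smoke libraries than those of clean air 2 and 3 did, and in complete smoke 3 multimapping reads took 31.66% against 7.69% to 19.18% in the other 8 BEAS-2B libraries. Member results that they move most are given with and without them. CPM values below are scaled by total gene counts only, whereas fold changes come from edgeR after TMM scaling, whose factors ran from 0.72 to 1.52 in BEAS-2B and from 0.92 to 1.09 in A549 cells. As a result BEAS-2B fold changes do not equal ratios of mean CPM. With library size alone the median log2 change of all BEAS-2B genes was -0.74 for both smokes over clean air, against -0.06 (complete) and -0.07 (filtered) with TMM, and every BEAS-2B change below is relative to the TMM scale.

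GADD45A and GADD45B rose several-fold under complete and filtered smoke in both lines, whereas MAP3K4 fell. GADD45G, with at most 12 reads in any clean air library, rose under both smokes in A549 cells and under filtered smoke in BEAS-2B cells. GADD45GIP1 rose under both smokes in BEAS-2B cells and under filtered smoke in A549 cells. Of the 5 genes, edgeR's quasi-likelihood test with Benjamini-Hochberg adjustment over all genes called 4 for complete smoke over clean air in BEAS-2B cells, where 41% of 16356 genes tested were called. The count was 5 of 5 for filtered smoke over clean air in BEAS-2B cells, where 48.6% were called. In A549 cells it was 4 of 5 for complete smoke over clean air, where 32.5% of 15244 genes were called, and 5 of 5 for filtered smoke, where 46.7% were called. These A549 fits did not pair same-numbered samples. With that pairing GADD45GIP1, not called here under complete smoke, passed, as given below. Calls were common among all genes, so the share of tested genes with a smaller (more negative or less positive) change is given below for each gene. How many of all genes had smoke and clean air libraries that did not overlap was not counted. Lack of overlap is therefore only a description of each gene. In bulk RNA, fewer cells that make a transcript and less of it per cell cannot be told apart.

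**Figure D1:**
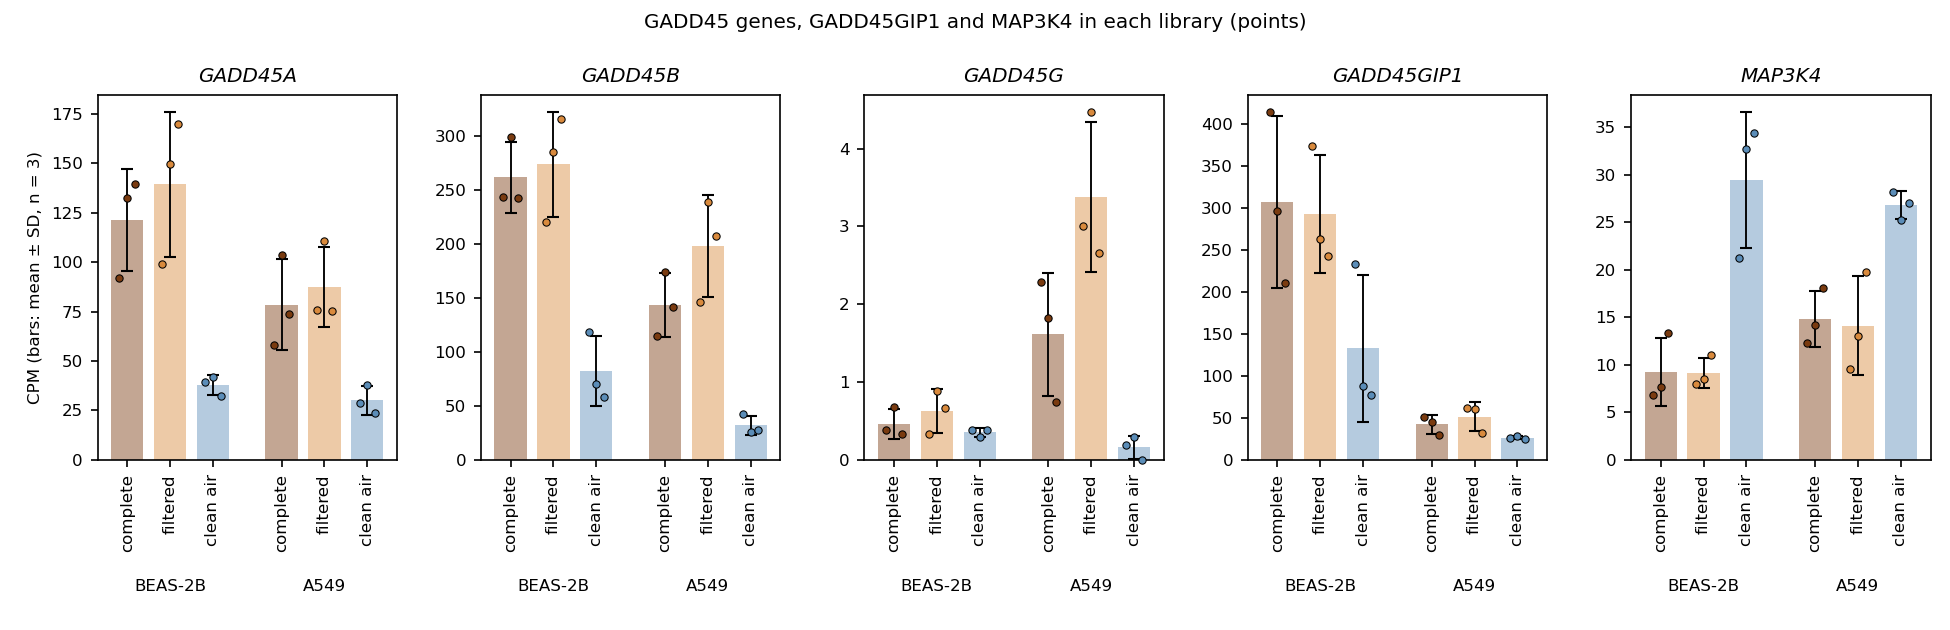
Level of each gene in every library, in CPM on linear axes that differ between panels, for complete smoke, filtered smoke and clean air in BEAS-2B and then A549 cells. Bars are means with SD (n = 3) and points are libraries. GADD45A and GADD45B libraries of both smokes lie above all clean air libraries of their line, and MAP3K4 libraries of both smokes lie below them. Such separation was not counted over all genes.

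GADD45A (ENSG00000116717), the DNA damage-responsive member of the family, lies on chromosome 1 at 67685061 to 67688338 (GRCh38, plus strand) and spans 3.28 kb. In BEAS-2B cells it stood at 91.96, 132.4 and 139.5 CPM in the complete smoke libraries, at 98.89, 149.5 and 169.9 CPM in the filtered smoke libraries and at 39.48, 41.78 and 32.42 CPM in the clean air libraries. The lowest smoke library was more than double the highest clean air library, and the smokes overlapped. On the log2 scale GADD45A rose by 2.33 ± 0.23 (SE) under complete smoke over clean air (adjusted p = 0.00124) and by 2.51 ± 0.23 under filtered smoke over clean air (adjusted p = 0.00161), changes larger than those of 98.8% and 99.3% of tested genes. A549 cells had 58.32, 103.6 and 73.78 CPM under complete smoke, 76.00, 110.6 and 75.48 CPM under filtered smoke and 28.88, 37.81 and 23.54 CPM in clean air. Again no smoke library reached down into the clean air range. The log2 changes over clean air were 1.52 ± 0.27 for complete smoke (adjusted p = 0.00475) and 1.70 ± 0.27 for filtered smoke (adjusted p = 0.00201), past 98.3% and 98.4% of tested genes.

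GADD45B (ENSG00000099860), the member known as an immediate-early gene of growth and inflammatory signals, lies on chromosome 19 at 2476122 to 2478259 (plus strand) and spans 2.14 kb. It was the most abundant of the 3 sensors per kilobase of exon in all 6 groups, at 122.4 ± 15.3 CPM per kb against 58.62 ± 12.39 for GADD45A in BEAS-2B cells under complete smoke (SD, n = 3). In clean air A549 cells the margin lay within the spread, at 14.94 ± 4.25 CPM per kb for GADD45B and 14.54 ± 3.48 for GADD45A. BEAS-2B libraries held 243.6, 299.5 and 242.3 CPM under complete smoke, 220.6, 285.1 and 315.9 CPM under filtered smoke and 118.7, 70.19 and 58.14 CPM in clean air. Clean air 1 was the highest of its group, and still every smoke library lay above it. In BEAS-2B cells the log2 changes over clean air were 2.30 ± 0.36 for complete smoke (adjusted p = 0.0032) and 2.33 ± 0.37 for filtered smoke (adjusted p = 0.00337), past 98.7% and 98.8% of tested genes. Without clean air 1 and complete smoke 3 they were 3.03 and 2.91. In A549 libraries GADD45B stood at 114.8, 174.4 and 141.7 CPM under complete smoke, at 146.6, 239.3 and 207.9 CPM under filtered smoke and at 42.37, 25.75 and 27.73 CPM in clean air. No groups of smoke and clean air overlapped. The A549 log2 changes over clean air were 2.29 ± 0.27 for complete smoke (adjusted p = 0.0011) and 2.78 ± 0.27 for filtered smoke (adjusted p = 0.000476), past 99.4% and 99.6% of tested genes. GADD45A and GADD45B kept their calls over clean air in both lines under all 21 alternatives tried for each.

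GADD45G (ENSG00000130222), the cytokine-responsive member, lies on chromosome 9 at 89605013 to 89606555 (plus strand) and spans 1.54 kb. It was the rarest member. A549 libraries held 33, 39 and 13 reads under complete smoke (2.286, 1.820 and 0.7458 CPM), 45, 85 and 44 reads under filtered smoke (3.008, 4.473 and 2.653 CPM) and 3, 6 and 0 reads in clean air (0.1892, 0.2977 and 0 CPM). Each smoke library lay above each clean air library, and each complete smoke library lay below each filtered smoke library. The log2 changes over clean air were 3.29 ± 0.67 for complete smoke (adjusted p = 0.00826) and 4.4 ± 0.63 for filtered smoke (adjusted p = 0.00144), larger than those of 99.8% and 99.9% of tested genes, but with 9 reads in all 3 clean air libraries the fitted size depends on few reads. Leaving out each library in turn gave log2 changes of 2.79 to 4.07 for complete smoke and 3.89 to 5.17 for filtered smoke, all called. BEAS-2B libraries held 21, 27 and 10 reads under complete smoke (0.3816, 0.6861 and 0.3283 CPM), 13, 48 and 30 reads under filtered smoke (0.3325, 0.8832 and 0.6722 CPM) and 12, 9 and 11 reads in clean air (0.3864, 0.2899 and 0.3855 CPM). The ranges overlapped on the CPM scale for both smokes. After TMM scaling the BEAS-2B log2 changes over clean air were 1.09 ± 0.46 for complete smoke, which missed the threshold (adjusted p = 0.0805), and 1.47 ± 0.45 for filtered smoke (adjusted p = 0.0247), past 83.0% and 90.6% of tested genes. The second call was lost without filtered smoke 2 (adjusted p = 0.0997), clean air 2 (0.0937) or clean air 3 (0.0799), and with library size alone (log2 change 0.84, adjusted p = 0.135). Offsets for GC content and exonic length gave 0.58 (adjusted p = 0.31). Without clean air 1 and complete smoke 3, the complete smoke change in BEAS-2B cells was 1.57 (adjusted p = 0.024).

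GADD45GIP1 (ENSG00000179271), the mitochondrial ribosome protein that also binds GADD45 proteins in the nucleus, lies on chromosome 19 at 12953119 to 12957236 (minus strand) and spans 4.12 kb. In BEAS-2B cells it held 414.8, 296.3 and 211.3 CPM under complete smoke, 373.8, 263.0 and 243.6 CPM under filtered smoke and 233.7, 87.97 and 77.11 CPM in clean air. Clean air 1 stood far above the other clean air libraries, inside the complete smoke range and just under the lowest filtered smoke library. The BEAS-2B log2 changes over clean air were 1.85 ± 0.58 for complete smoke (adjusted p = 0.0312) and 1.74 ± 0.58 for filtered smoke (adjusted p = 0.0334), past 95.7% and 94.7% of tested genes. Without clean air 1 they were 2.79 and 2.68. Both calls were lost when clean air 2 or 3, or replicate 1 or 2 of the smoke itself, was left out, with adjusted p from 0.063 to 0.111. Over all 21 alternatives the complete smoke call was lost in 6 and the filtered smoke call in 5. A549 cells held 51.67, 45.35 and 29.60 CPM under complete smoke, 62.23, 60.46 and 31.77 CPM under filtered smoke and 25.72, 28.73 and 24.85 CPM in clean air. Replicate 3 was the lowest of each smoke group and lay only just above the clean air range. The A549 log2 changes over clean air were 0.80 ± 0.30 for complete smoke (adjusted p = 0.0586, not called) and 1.14 ± 0.30 for filtered smoke (adjusted p = 0.0126), past 89% and 93.5% of tested genes. Same-numbered A549 samples deviated together, and with the number as a block the complete smoke change was 0.75 with an adjusted p of 0.00344, and 8321 genes in all were called, against 4951 without the block. Without filtered smoke 2 the filtered smoke call was lost (adjusted p = 0.0509).

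MAP3K4 (ENSG00000085511), the kinase that GADD45 proteins activate, lies on chromosome 6 at 160991727 to 161117385 (plus strand) and spans 125.66 kb. It was the one member that fell. BEAS-2B libraries held 6.796, 7.623 and 13.33 CPM under complete smoke, 8.004, 8.519 and 11 CPM under filtered smoke and 21.28, 32.73 and 34.42 CPM in clean air. Every smoke library lay below every clean air library, with complete smoke 3 the highest and clean air 1 the lowest of their groups. The BEAS-2B log2 changes over clean air were -1.0 ± 0.21 for complete smoke (adjusted p = 0.00816) and -0.99 ± 0.21 for filtered smoke (adjusted p = 0.00784), and -1.67 and -1.68 with library size alone. After TMM scaling, 18.8% and 23.5% of tested genes had a more negative change. A549 libraries held 12.33, 14.18 and 18.07 CPM under complete smoke, 9.559, 13 and 19.78 CPM under filtered smoke and 28.25, 25.30 and 27.01 CPM in clean air. Here too the groups did not overlap, and replicate 3 was the highest of each smoke group. The A549 log2 changes over clean air were -0.73 ± 0.23 for complete smoke (adjusted p = 0.0336) and -0.79 ± 0.23 for filtered smoke (adjusted p = 0.0186), more negative in 16% and 18.8% of tested genes. These A549 calls depended on single libraries in fits that did not pair same-numbered samples. The complete smoke call was lost without any 1 of complete smoke 1 or 2 or clean air 1, 2 or 3 (adjusted p from 0.0727 to 0.12), and the filtered smoke call without filtered smoke 1 or 2 or clean air 1 or 3 (0.0518 to 0.0676). An antisense RNA overlaps MAP3K4 at no more than 2.35 CPM on average in any group, and its reads lie on the other strand.

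**Figure D2:**
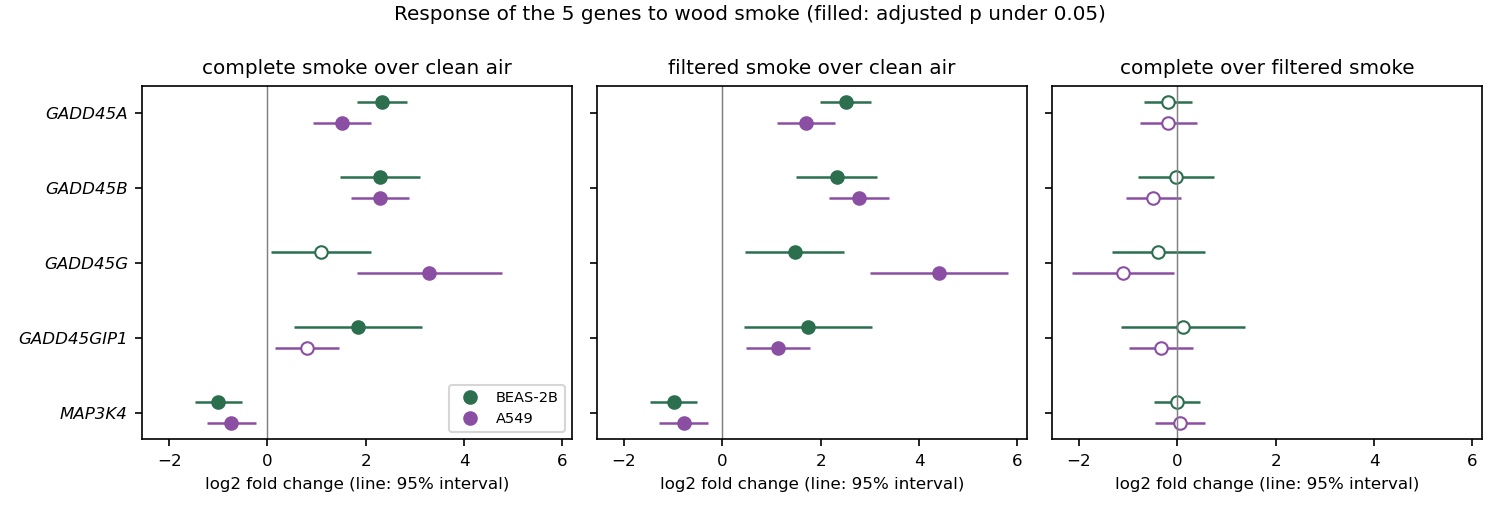
Log2 fold change of each gene with its 95% interval (lines), for complete smoke over clean air, filtered smoke over clean air and complete over filtered smoke, in BEAS-2B (green) and A549 cells (purple). Filled points passed an adjusted p of 0.05. GADD45A and GADD45B lie between 1.52 and 2.78 over clean air in all 4 comparisons and MAP3K4 between -1.0 and -0.73, and no point is filled in the right panel.

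Complete and filtered smoke were compared to ask whether what the filter removes changes these genes. None of the 5 passed in BEAS-2B cells, where 0% of all genes were called, nor in A549 cells, where 0% were called. An unadjusted p under 0.05 was reached by 222 genes in BEAS-2B cells and 236 in A549 cells, and in A549 cells the DESeq2 Wald test called 3 genes, limma-voom 0, edgeR with no low-count filter 19 and edgeR with the sample number as a block 1, none of them one of the 5. In A549 cells GADD45G was lower under complete than under filtered smoke in all 3 libraries of each group (1.617 ± 0.790 against 3.378 ± 0.965 CPM, SD, n = 3). Its log2 difference of -1.11 ± 0.47 had an unadjusted p of 0.0392 and an adjusted p of 0.998, with a 95% interval from -2.14 to -0.07. For GADD45B in A549 cells the difference was -0.49 (interval -1.05 to 0.07), and for GADD45A it was -0.19 in both lines, with intervals from -0.67 to 0.30 in BEAS-2B and from -0.76 to 0.39 in A549 cells. MAP3K4 differed by -0.01 in BEAS-2B cells (interval -0.48 to 0.47) and by 0.05 in A549 cells (interval -0.45 to 0.56). For GADD45GIP1 the intervals were the widest in BEAS-2B cells, from -1.15 to 1.37 around 0.11. A change as large as that over clean air was thus outside the interval for GADD45A, GADD45B and MAP3K4 in both lines, but smaller differences were not detectable here. Both comparisons with clean air share their clean air libraries, so the likeness of the responses to the smokes is not independent evidence.

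To ask whether the lines responded differently, the change in BEAS-2B cells minus that in A549 cells was tested in a joint fit of all 18 libraries. In the main fit, which held no block, none of the 5 passed for complete smoke, where 1.74% of 17703 genes were called, or for filtered smoke, where 0.825% were called. For filtered smoke GADD45G passed in 7 of 24 alternatives, some of them without a block. The largest difference was that of GADD45G, at -2.22 ± 0.86 for complete smoke (unadjusted p = 0.0197, adjusted p = 0.2) and -2.92 ± 0.84 for filtered smoke (unadjusted p = 0.00289, adjusted p = 0.113), where a negative value is a smaller rise in BEAS-2B cells. GADD45A differed the other way, by 0.81 ± 0.35 for complete smoke (adjusted p = 0.248) and 0.83 for filtered smoke (adjusted p = 0.302). GADD45B differed by 0.03 (95% interval -0.89 to 0.96) for complete smoke and by -0.42 (interval -1.34 to 0.51) for filtered smoke. For MAP3K4 the differences were -0.29 (interval -0.95 to 0.37) and -0.20. GADD45GIP1 differed by 1.10 ± 0.66 for complete smoke (adjusted p = 0.406), and by 2.25 (adjusted p = 0.0100) without BEAS-2B clean air 1 and complete smoke 3. With the sample number as a block in each line, 3 of the 5 passed for each smoke. GADD45A then differed by 0.83 and 0.84 for complete and filtered smoke (adjusted p = 0.015 and 0.0188), GADD45G by -2.27 and -3.03 (adjusted p = 0.0329 and 0.00801) and GADD45GIP1 by 1.26 and 0.93 (adjusted p = 0.00394 and 0.0286). With the block 3541 and 2742 genes in all were called, and the numbers were taken as pairs in A549 but not in BEAS-2B cells.

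In clean air, the lines already differed in 2 of the 5 genes, where 55.4% of all genes were called between lines. GADD45GIP1 was 5.77-fold higher in BEAS-2B than in A549 cells (132.9 ± 87.4 against 26.43 ± 2.04 CPM, SD, n = 3, log2 2.53 ± 0.49, adjusted p = 0.000334). GADD45B was 2.89-fold higher in BEAS-2B cells (82.34 ± 32.06 against 31.95 ± 9.08 CPM, log2 1.53 ± 0.32, adjusted p = 0.000591). Without BEAS-2B clean air 1 these log2 differences were 1.69 for GADD45GIP1 (adjusted p = 0.00231) and 1.04 for GADD45B (adjusted p = 0.00434). GADD45A, GADD45G and MAP3K4 did not pass, with log2 differences of 0.47, 1.14 and 0.24. BEAS-2B cells grew in KGM medium and A549 cells in RPMI, and BEAS-2B cells were seeded in larger number. The line, its medium, its seeding and the preparation of its libraries cannot be told apart in this comparison.

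Of the kinases that MAP3K4 phosphorylates, MAP2K4 and MAP2K6 fell with it under both smokes in both lines, and MAP2K3 did not pass, at 0.48 and 0.62 in BEAS-2B cells and -0.06 and -0.13 in A549 cells under complete and filtered smoke. The list of p38 and JNK kinases held 14 genes. Under complete smoke over clean air, 2 of 13 tested rose and 4 fell in BEAS-2B cells (median log2 change 0.05, against -0.06 over all genes), and 3 of 14 rose and 4 fell in A549 cells (median -0.06, against 0.02). Under filtered smoke, 3 rose and 4 fell in BEAS-2B cells (median 0.14, against -0.07), and again 3 rose and 4 fell in A549 cells (median -0.11, against 0.01). Over all genes, 3517 rose and 3187 fell under complete smoke and 3867 rose and 4080 fell under filtered smoke in BEAS-2B cells, of 16356 tested, and in A549 cells 2371 rose and 2580 fell under complete and 3524 rose and 3588 fell under filtered smoke, of 15244. Whether any list departs from these shares was not tested. Counts of list genes at other settings, given below, stand without the shares of all genes at those settings. The genes of this list, like the others below, were chosen with earlier results of these data known.

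MAP2K4, the kinase that activates both JNK and p38, held 7.759, 9.148 and 12.51 CPM under complete smoke, 7.698, 9.549 and 10.66 CPM under filtered smoke and 21.57, 38.11 and 40.38 CPM in clean air in BEAS-2B cells. Its log2 changes over clean air were -1.07 for complete smoke and -1.14 for filtered smoke in BEAS-2B cells (adjusted p = 0.00487 and 0.00418), and -0.95 and -0.99 in A549 cells (adjusted p = 0.00141 and 0.000848). MAPK14, the main p38 kinase, fell by 1.14 and 1.18 on the log2 scale in BEAS-2B cells (adjusted p = 0.00276 and 0.00277) and by 0.78 and 0.91 in A549 cells (adjusted p = 0.0123 and 0.00414) under complete and filtered smoke. MAPKAPK3, a kinase that p38 phosphorylates, went the other way. It rose by 1.64 and 1.81 in BEAS-2B cells (adjusted p = 0.00516 and 0.0041) and by 0.79 and 0.87 in A549 cells (adjusted p = 0.0207 and 0.00954). MAPK12, the p38 form best known from muscle, rose by 1.45 and 1.46 in BEAS-2B cells and by 0.62 and 0.70 in A549 cells, all 4 called.

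MAP2K6, a dedicated p38 activator, was the member of the list that set the lines apart. BEAS-2B libraries held 7, 8 and 10 reads under complete smoke (0.1272, 0.2033 and 0.3283 CPM), 5, 13 and 14 reads under filtered smoke (0.1279, 0.2392 and 0.3137 CPM) and 90, 151 and 157 reads in clean air (2.898, 4.864 and 5.503 CPM). The groups were far apart at low counts. A549 cells held much more, at 44.81, 41.99 and 44.81 CPM under complete smoke, 39.91, 37.05 and 55.77 CPM under filtered smoke and 66.08, 79.69 and 96.64 CPM in clean air. Its log2 changes over clean air were -3.67 ± 0.34 and -3.57 ± 0.33 in BEAS-2B cells and -0.76 ± 0.18 and -0.72 ± 0.18 in A549 cells for complete and filtered smoke. The difference between lines passed for complete smoke (-2.94 ± 0.35, adjusted p = 0.0013) and for filtered smoke (-2.84 ± 0.34, adjusted p = 0.00103). With offsets for GC content and exonic length and the sample number as a block, the A549 changes of MAP2K6 were 0.022 and 0.217, of the other sign, while those in BEAS-2B cells were -2.91 and -2.49, both called.

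**Figure D3:**
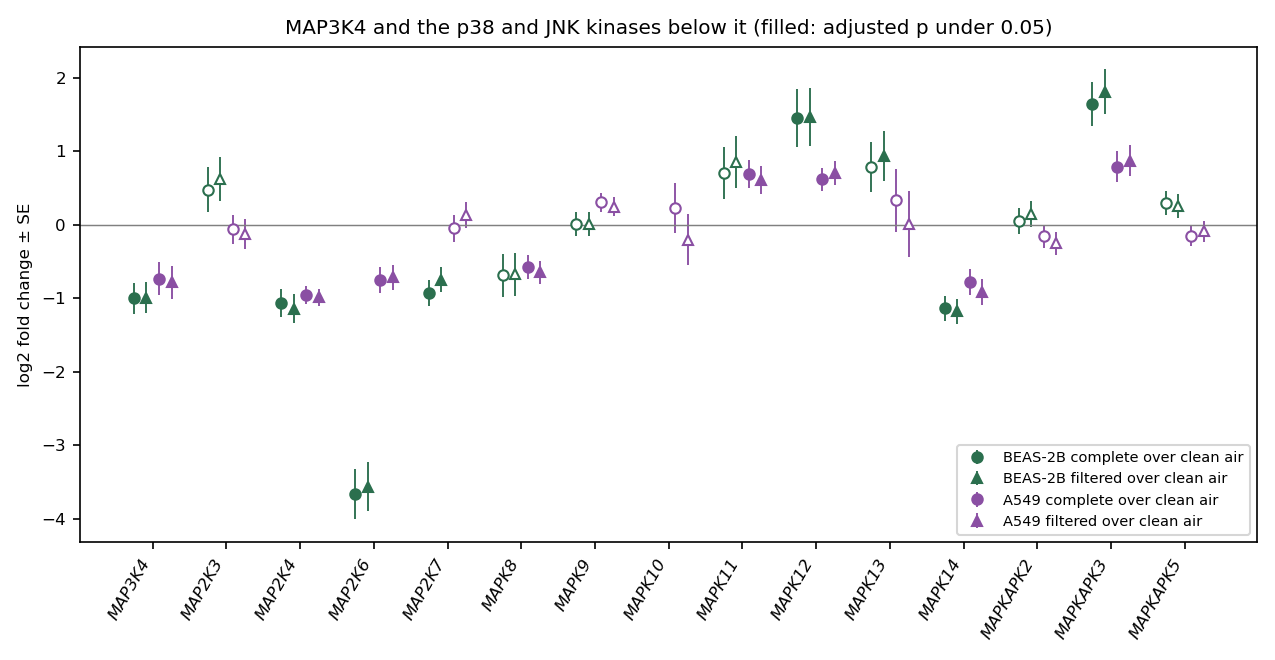
Log2 fold change (± SE) of MAP3K4 and 14 p38 and JNK kinases below it, for complete (circles) and filtered smoke (triangles) over clean air in BEAS-2B (green) and A549 cells (purple), with filled symbols for an adjusted p under 0.05. MAP3K4, MAP2K4 and MAPK14 lie below 0 and are filled in all 4 comparisons, MAPK12 and MAPKAPK3 lie above 0 and are filled in all 4, and MAP2K6 in BEAS-2B cells lies near -3.6. MAPK10 was not tested in BEAS-2B cells.

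Other kinases at the level of MAP3K4 moved in both directions. Of 17 other MAP3K genes, 2 rose and 5 fell among 15 tested in BEAS-2B cells under complete smoke (median -0.68), 2 rose and 6 fell under filtered smoke (median -0.73), and in A549 cells 2 of 16 rose and 6 fell under complete (median -0.43) and 2 rose and 8 fell under filtered smoke (median -0.37). MAP3K1, a JNK-route kinase, fell by 1.5 and 2.03 on the log2 scale in BEAS-2B cells and by 1.11 and 1.52 in A549 cells under complete and filtered smoke, all 4 called. MAP3K5, the redox-sensitive kinase ASK1, fell by 1.52 and 1.5 in A549 cells (adjusted p = 0.00128 and 0.000925), and was at -0.51 and -0.73 in BEAS-2B cells, not called (adjusted p = 0.18 and 0.0628). MAP3K6, a close relative of MAP3K5, rose by 0.84 and 0.92 in BEAS-2B cells and by 1.18 and 1.3 in A549 cells under complete and filtered smoke. With library size alone MAP3K6 was at 0.14 and 0.23 in BEAS-2B cells, not called, and 12 and 11 of the 15 MAP3K genes fell. The median change of all BEAS-2B genes was clearly negative at that setting too.

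Transcription factors reported to act on GADD45 genes, 23 in all, moved in both directions. In BEAS-2B cells 2 of 22 tested rose and 9 fell under complete smoke (median -0.30), and 6 rose and 9 fell under filtered smoke (median -0.33). In A549 cells 5 of 23 rose and 8 fell under complete (median -0.08) and 5 rose and 11 fell under filtered smoke (median -0.52). The factors that rose in all 4 comparisons were the stress factors ATF3 and DDIT3. ATF3 changed by 2.07 and 2.40 in BEAS-2B cells and by 2.72 and 2.50 in A549 cells under complete and filtered smoke. DDIT3, also called CHOP, changed by 1.63 and 1.69 in BEAS-2B cells and by 1.66 and 2.03 in A549 cells, all called. EGR1, an immediate-early factor, changed by 1.74 (adjusted p = 0.0624) and 1.89 (adjusted p = 0.0432) in BEAS-2B cells and by 2.79 and 3.0 in A549 cells, both called. POU2F1, the octamer-binding factor OCT-1, fell by 1.41 and 2.25 in BEAS-2B cells and by 1.85 and 2.16 in A549 cells.

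The list of RNA-binding and nonsense-mediated decay factors, some of which bind or degrade GADD45A and GADD45B mRNA, held 12 genes, of which 0 rose in these 4 comparisons. In BEAS-2B cells 3 fell under complete smoke (median -0.49) and 5 under filtered smoke (median -0.41), and in A549 cells 5 fell under each (medians -0.23 and -0.22). UPF2, a core decay factor, fell by 1.09 and 1.29 on the log2 scale in BEAS-2B cells and by 0.69 and 0.71 in A549 cells under complete and filtered smoke, all called. With library size alone 11 and 12 of the 12 fell in BEAS-2B cells, where the median change of all genes was clearly negative too. With offsets for GC content, exonic length and gene span and the sample number as a block, 3 and 4 fell and 1 and 4 rose in A549 cells.

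Of 10 partners of GADD45 proteins in the cell cycle, 3 rose and 2 fell in BEAS-2B cells under complete smoke and 1 rose and 2 fell under filtered smoke, and 0 were called in A549 cells under either smoke. CDKN1A, the p21 inhibitor that GADD45 proteins bind, rose by 0.71 and 0.92 on the log2 scale in BEAS-2B cells under complete and filtered smoke, and was at 0.04 and 0.28, not called, with library size alone. PCNA was called at 0.66 in BEAS-2B cells under complete smoke (adjusted p = 0.0468). Its mean was 479.4 CPM there and 482.1 CPM in clean air, and its sign changed at settings given below. The 2 that fell in BEAS-2B cells were CDC25B and AURKA, at -0.77 and -0.58 under complete smoke. In A549 cells 2 and 7 of the 10 rose with the sample number as a block, which also raised the number of all genes called under complete smoke. Among 13 DNA demethylation and excision-repair partners, 3 rose and 2 fell under complete and 3 rose and 5 fell under filtered smoke in BEAS-2B cells (median 0.46 for each), and 4 rose and 3 fell under each smoke in A549 cells (medians 0.12 and 0.23). TET2, an enzyme that oxidises methylcytosine, fell by 2.10 and 2.61 in BEAS-2B cells and by 1.57 and 1.79 in A549 cells. ING1, which brings GADD45A to methylated sites, changed by 0.61 (adjusted p = 0.0634) and 0.76 (adjusted p = 0.0264) in BEAS-2B cells and by 1.65 and 1.97 in A549 cells, both called, under complete and filtered smoke. Its mean in BEAS-2B cells was 13.82 CPM under complete smoke, 15.53 CPM under filtered smoke and 14.35 CPM in clean air, and the BEAS-2B fold changes are after TMM scaling.

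The large subunit of the mitochondrial ribosome, to which GADD45GIP1 belongs, had most of its genes called in 3 of 4 comparisons. Of 49 protein genes of the large mitochondrial ribosome subunit, 48 were tested. In BEAS-2B cells 40 rose under complete smoke (median log2 change 1.41) and 41 under filtered smoke (median 1.30), and in A549 cells 11 rose under complete (median 0.64) and 33 under filtered smoke (median 0.84), and 0 fell. For comparison, 45.3% and 50.8% of the protein-coding genes of shortest span (defined below) rose in BEAS-2B cells and 39.5% and 56.1% in A549 cells. GADD45GIP1, at 1.85 and 1.74 in BEAS-2B and 0.80 and 1.14 in A549 cells, lay above the median of the list in BEAS-2B and in A549 cells. MRPL41 rose by 2.23 and 2.45 in BEAS-2B cells and by 1.03 and 1.44 in A549 cells, and MRPL36 by 2.26 and 2.05 and by 1.05 and 1.26. With library size alone 25 and 24 rose and 4 and 3 fell in BEAS-2B cells. Leaving out each library in turn gave 18 (without clean air 2) to 44 for complete smoke and 16 (without clean air 2 or 3) to 45 for filtered smoke in BEAS-2B cells. In A549 cells it gave 0 (without complete smoke 1, among others) to 36 and 7 (without filtered smoke 1) to 43. With the sample number as a block 37 and 43 rose in A549 cells under complete and filtered smoke, and with the block and offsets for GC content and length 17 and 30 did. The block also raised the number of all genes called under complete smoke.

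Some calls named above rest on single libraries, in fits that held no block. MAP2K4, ATF3, MAP3K5 in A549 cells and MAP2K6 in BEAS-2B cells kept their calls with each library left out. Under complete smoke in A549 cells, MAP3K1, MAPKAPK3, UPF2, TET2, MRPL36 and MRPL41 each lost their call without 5 of the 6 libraries compared (adjusted p up to 0.16 for MAP3K1), and MAPK14 and MAP2K6 without 2. Under complete smoke in BEAS-2B cells, MAP3K1, MAP3K6, POU2F1, UPF2, CDKN1A and TET2 lost theirs without 4 libraries, and MAPK12 and DDIT3 without 3. Under filtered smoke EGR1 lost its BEAS-2B call without 5. Counts of the lists moved with single libraries too. The 6 MAP3K genes that fell under complete smoke in A549 cells were 1 to 8 (1 without complete smoke 2 or clean air 2), and the 5 in BEAS-2B cells were 1 to 9 (1 without clean air 2 or 3). The 9 transcription factors that fell under complete smoke in BEAS-2B cells were 2 to 9, and the 4 p38 and JNK kinases that fell in that comparison were 4 to 5.

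The members differ in the length of the gene, and changes of all protein-coding genes ran with that length. When tested protein-coding genes were split into 10 equal groups by genomic span, the 4 other members lay in the shortest group and MAP3K4 lay in group 9. In BEAS-2B cells the median log2 change of the shortest group was 0.90 under complete and 1.0 under filtered smoke, and that of group 9 was -0.63 and -0.73. In A549 cells the shortest group had medians of 0.63 and 0.78 and group 9 had -0.54 and -0.59. GADD45A and GADD45B lay above the upper quartile of the shortest group in all 4 comparisons, as did GADD45G in A549 cells. GADD45G in BEAS-2B cells and GADD45GIP1 under complete smoke in A549 cells lay within the quartiles of that group, and MAP3K4 lay within those of group 9 in all 4. With offsets for GC content, exonic length and span, GADD45A changed by 1.88 and 2.04 in BEAS-2B and by 1.09 and 1.24 in A549 cells under complete and filtered smoke, GADD45B by 2.03 and 1.97 and by 1.84 and 2.25, all called, and GADD45G by 2.71 and 3.66 in A549 cells, both called. MAP3K4 kept its calls in BEAS-2B cells at -0.52 and -0.49 (adjusted p = 0.0169 and 0.0219) and lost them in A549 cells at -0.27 and -0.29 with the sample number as a block (adjusted p = 0.121 and 0.0911; without the block 0.222 and 0.172). GADD45GIP1 kept its calls in BEAS-2B cells at 1.15 and 0.98 (adjusted p = 0.0128 and 0.0237) and in A549 cells was at 0.16 and 0.31 with the block (adjusted p = 0.257 and 0.0332; without the block 0.44 and 0.129). For GADD45G in BEAS-2B cells only the range over all 20 alternatives, offsets included, is given. It was 0.23 to 1.57 under complete smoke (adjusted p up to 0.679). Under filtered smoke it was 0.48 to 1.72 (adjusted p up to 0.31), with the call lost in 7. The part of gene length in these results was not tested further.

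**Figure D4:**
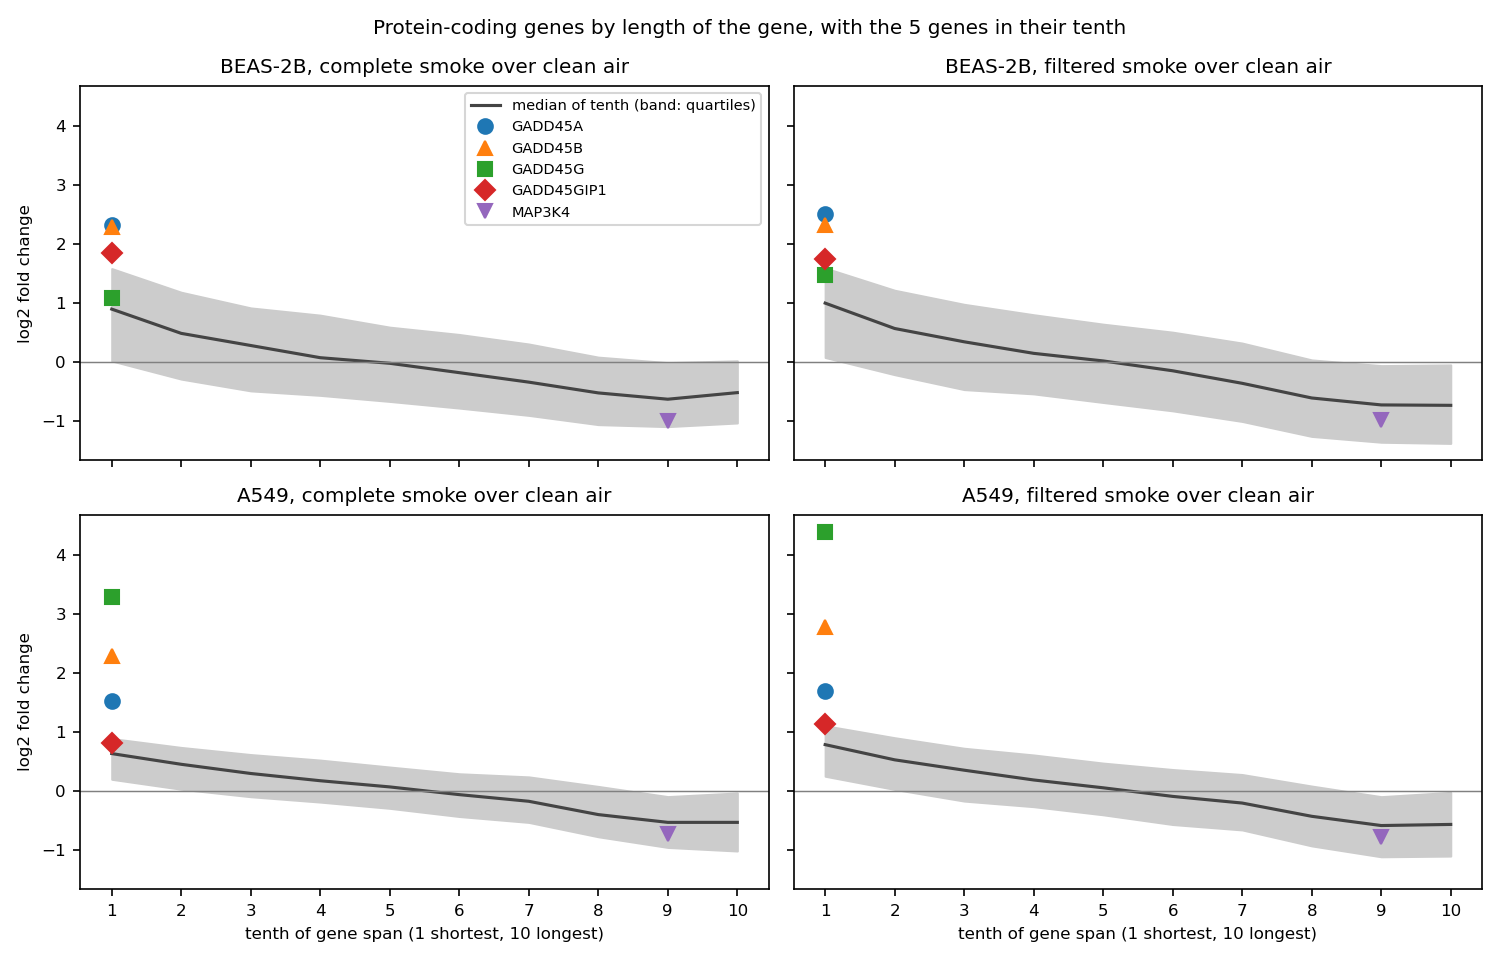
Median log2 fold change of tested protein-coding genes (line, with quartiles as a grey band) in 10 equal groups by genomic span, for both smokes over clean air in BEAS-2B (upper) and A549 cells (lower), with the 5 genes as symbols in their group. Medians are 0.90 and 1.0 (BEAS-2B) or 0.63 and 0.78 (A549) in the shortest group and -0.63 and -0.73 or -0.54 and -0.59 in group 9. GADD45A and GADD45B stand above the band and MAP3K4 inside it.

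Across the 18 libraries, after centring each line, GADD45A and GADD45B went together (Pearson r = 0.94 on log2 CPM), and MAP3K4 ran opposite to both (r = -0.88 and -0.87). These correlations share the exposure groups and the library scaling and are a description only. Among 8962 protein-coding genes with at least 5 CPM on average in each line (8963 for GADD45G, itself below 5), those most like GADD45A were IER2 (r = 0.98), an immediate-early gene, YRDC (0.98), DUSP1 (0.98), a MAP kinase phosphatase that switches off p38 and JNK, and SRSF7 (0.97). Closest to GADD45B were SERTAD1 (0.98), ID2 (0.98), IER2 (0.97) and FKBP4 (0.97). GADD45G had its nearest match in CDK2 (0.94), followed by RHOB (0.92), FOXD1 (0.92) and ERF (0.92). GADD45GIP1 was matched almost exactly by MICOS13 (0.999), a mitochondrial inner membrane protein, and by NHP2, ROMO1 and PHPT1 (0.997 each). MAP3K4 was nearest to SPIRE1 (0.98), ANKFY1 (0.98), SMYD4 (0.98) and KLHDC10 (0.98).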

How the data were processed

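Read counts per gene were deposited by the authors as 3 columns (without regard to strand and for each strand), made with STAR 2.7.10b on GRCh38 per the submitters' processing notes. The annotation used is not given in the sources used here. Per the labels' protocols, RNA was extracted with TRIzol and libraries came from a TruSeq mRNA kit. The column of the dominant strand was used as counts (11.73 to 17.09 times the other in all 18 libraries), and the 4 summary lines were left out. Genes passing filterByExpr were tested with edgeR 4.0.16 (R 4.3.3): TMM scaling, robust quasi-likelihood fits of the 9 libraries of a line, and of all 18 for differences between lines, with Benjamini-Hochberg adjustment over all genes tested and 0.05 as the threshold. Standard errors were derived from the test statistic. Where no tool is named, an adjusted p-value is edgeR's. Common biological coefficients of variation were 0.299 (BEAS-2B), 0.209 (A549) and 0.258 (joint). Positions, spans and exon lengths come from GENCODE v29, promoter windows from RefSeq. Offsets were splines (mgcv 1.9.3) of GC content and exonic length, with span added in an alternative chosen after seeing the data. Leaving out BEAS-2B clean air 1 and complete smoke 3 together was chosen from earlier results of these data.

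The members and gene lists were chosen with earlier results of these data known. Genes named are the 5 members, up to 4 called genes per list and comparison with at least 5 CPM, and the 4 genes most like each member, some of them also in other comparisons. MAP2K6 in BEAS-2B cells (1.62 CPM on average) was outside that rule and was named after its values were seen. Some genes of the lists and neighbours of members are not reported here. Alternatives were DESeq2 1.42.0 size factors and Wald test, upper-quartile scaling, library size alone, no or a stricter low-count filter, limma-voom (limma 3.58.1), counts without regard to strand, the sample number as a block, the offsets, other sets of libraries, and each library left out. Same-numbered A549 samples were taken as paired because all 9 pairs deviated together from their group means (correlations from 0.271 to 0.917). The main fits leave this pairing out, so results hold it only where the block is named. In BEAS-2B cells 8 of 9 did (lowest -0.315), so the numbers were not taken as pairs there. On simulated counts, changes of 1 on the log2 scale were called in 51.5% of genes for complete smoke over clean air in A549 cells, in 20% in BEAS-2B cells and in 5.3% for the difference between lines (2 on the log2 scale: 92.9%, 86.7% and 60%). The simulation changed 100 genes by 1 and 100 by 2, far fewer than were called over clean air in the data. It also held no pairing of libraries, so these shares are not the power of the comparisons with clean air.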

Additional observations from a re-analysis of the deposited data

Results flagged for a closer look

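The change in BEAS-2B cells minus that in A549 cells passed the joint test for 3 genes of the lists. Over all genes, 1.74% were called for complete smoke and 0.825% for filtered smoke. The lists of MAP2K6, MRPL39 and TFAP2A held 14, 48 and 23 tested genes, and no gene of the other lists passed. Whether the lists depart from the share over all genes was not tested. MAP2K6 differed by -2.94 for complete smoke and by -2.84 for filtered smoke. MRPL39, a protein of the large mitochondrial ribosome subunit, differed by 1.37 ± 0.32 for complete smoke (adjusted p = 0.0408), a call lost with 1 of several libraries left out or with library size alone (0.82, adjusted p = 0.0955). TFAP2A, a transcription factor of epithelia, differed by -1.42 ± 0.30 for complete smoke (adjusted p = 0.0255), also lost without 1 of several libraries (adjusted p up to 0.0757).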

How the results depend on the processing

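For the 5 genes, 45 results were recomputed under 956 alternatives. Direction and side of the threshold held in 858, 37 lost the threshold, 30 gained it and 31 changed sign, none of them of a called result. For the log2 changes of named list genes, 134 results under 2724 alternatives gave 2386 unchanged calls, 328 lost ones and 10 changes of sign. The count of members called for filtered smoke over clean air in A549 cells was 3 with offsets for GC and length and 3 with span added (leaving out each library: 3 to 5), and in BEAS-2B cells it was 3 to 5 with each library left out. The count for the line difference in the response to complete smoke was 3 with the replicate block and 3 with block and offsets (GADD45A, GADD45G and GADD45GIP1 with the block), and 1 without BEAS-2B clean air 1 and complete smoke 3. For filtered smoke it was 3 with the block, 3 with block and offsets, and 1 each (GADD45G) with library size alone, no filter, the DESeq2 Wald test, GC and length offsets, and span added. Except for the block alone, given above, the shares of all genes called at these settings are not given. These counts are therefore a description only. In BEAS-2B cells the block changed no call of a member over clean air. The planned block for clean air levels between lines was not run, because numbers pair no samples across lines.

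Differences of complete from filtered smoke near 0 changed sign. In BEAS-2B cells MAP3K4 was 0.009 with library size alone, 0.018 with a mean of at least 5 CPM and 0.003 on the libraries compared (each library left out: -0.20 to 0.10), GADD45B was 0.064 with GC and length offsets, 0.070 with block and offsets, 0.061 with span and 0.12 without clean air 1 and complete smoke 3 (-0.12 to 0.13), and GADD45GIP1 ran from -0.34 to 0.45. In A549 cells with each library left out MAP3K4 ran from -0.14 to 0.32 and GADD45A from -0.469 to 0.033. The line difference of GADD45B was -0.022 with upper-quartile scaling, -0.50 with library size alone, -0.071 with GC and length offsets and -0.038 with block and offsets for complete smoke (-0.29 to 0.52), and 0.072 without clean air 1 and complete smoke 3 for filtered smoke (-0.772 to 0.072), where that of MAP3K4 ran from -0.483 to 0.062. MAP2K6 in A549 cells was 0.041 and 0.231 (complete and filtered smoke) with GC and length offsets, 0.022 and 0.217 with the block too, 0.13 and 0.33 with span, and 0.11 and 0.31 with span and block. PCNA in BEAS-2B cells under complete smoke, 0.66 as reported, was -0.008 with library size alone and -0.10 with span offsets. The cause was not tested. Depth limits GADD45G, whose clean air libraries held 0 to 12 reads.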
